A study of Homo sapiens with 30 samples.

Results

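The nuclear-encoded subunits of the respiratory chain were followed in 4 cell lines of diffuse large B-cell lymphoma (DLBCL) treated with AZD8186, an inhibitor of the PI3Kβ and PI3Kδ kinases. The genes were chosen by symbol (NDUFA, NDUFB, NDUFC, NDUFS and NDUFV with a number, SDHA to SDHD, UQCR, CYC1, COX4 to COX8 and ATP5), with assembly factors and pseudogenes left out, and no measured value entered the rule. It found 91 of the 21112 genes in the files, 36 of complex I, 4 of complex II, 10 of complex III, 19 of complex IV and 20 of complex V, plus the 2 readthrough genes NDUFC2-KCTD14 and ATP5MF-PTCD1, which were put in no complex. NDUFC2-KCTD14 passed the filter and is among the 81, 82 and 83 genes counted as tested below, while ATP5MF-PTCD1 did not. NDUFA4 and its paralog NDUFA4L2 were counted with complex IV, of which NDUFA4 is a subunit. The pseudogene UQCRBP1 was left out, and NDUFAB1 does not match the rule.

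The cells were the germinal center B-cell-like (GCB) lines K422 and HT and the activated B-cell-like (ABC) lines TMD8 and OCI-Ly10, grown with 0.5 µM AZD8186 or with DMSO, the solvent control, for 6, 12, 18 or 24 h. The 30 libraries form 15 pairs, each with AZD8186 and with DMSO at 1 line and time, 8 in GCB and 7 in ABC lines, since TMD8 has no 12 h libraries here. There was 1 library per line, time and treatment, and nothing in the labels says that libraries came from separate cultures. In the fits of a subtype the p-values therefore measure the spread left after terms for line and time. In the fit of all 30 libraries they measure the spread of the response over the times within lines, not between lines. Each line stands for itself rather than for its subtype.

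The respiratory chain passes electrons from NADH (complex I) and succinate (complex II) through complex III and cytochrome c to oxygen at complex IV. Complexes I, III and IV pump protons, and complex V, the ATP synthase, uses the gradient to make ATP. Complexes I, III, IV and V are built from subunits of both genomes, while all subunits of complex II are nuclear. The 13 subunits encoded by mitochondrial DNA were not analysed here.

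Libraries held 15820230 to 23579029 expected counts (median 18591638), of which the 91 genes took 1.35% to 1.74%. B-cell markers summed to 1218 to 3258 TPM (transcript abundance relative to the library, corrected for length) in the 4 lines, against at most 1.28 TPM for myeloid markers. T-cell and stroma markers summed to at most 5.2 and 1.08 TPM in HT, TMD8 and OCI-Ly10, but to 162 to 184 TPM and 98.1 to 187 TPM in K422, where CD2, COL1A1, COL1A2 and COL3A1 were at 0. Ribosomal protein genes took 13.6% to 18.3% of the counts in AZD8186-treated GCB cells, against 11.3% to 17.1% under DMSO, and 21.4% to 25.8% in AZD8186-treated ABC cells, against 17.5% to 23.2% under DMSO. Their part in the results below was not tested. The counts of 51 respiratory chain genes were not whole in more than 50% of the 30 libraries, as happens when RSEM shares reads between similar transcripts, so values of close copies are uncertain.

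Under DMSO, 80 of the 91 genes had a median of at least 1 TPM in all 4 lines. Summed over its members, complex II was the least abundant, with 387 to 759 TPM in the GCB and 293 to 432 TPM in the ABC libraries. Complex I summed to 11835 to 13476 TPM in the GCB and 9599 to 11489 TPM in the ABC libraries, and complex IV to 8952 to 11013 TPM in the GCB and 6932 to 7921 TPM in the ABC libraries. Both sums were higher in GCB lines without overlap between the DMSO libraries, a description of TPM that was not tested. Ribosomal protein genes took 44.5% to 53.2% of all TPM in the ABC DMSO libraries, against 33.9% to 45.03% in the GCB DMSO libraries. TPM is relative to the library, so a larger ribosomal share lowers the TPM of other genes. The part of this share in the differences between lines was not tested. The median ratio between the line with the highest and the line with the lowest level was 1.66 over these 80 genes, and it was over 2 for 22 of them. ATP5IF1, the protein that blocks ATP hydrolysis by complex V, differed the most among the 80, with medians of 1159 TPM in K422, 1052 TPM in HT, 114 TPM in TMD8 and 344 TPM in OCI-Ly10. SDHD, a membrane anchor of complex II, had a median of 102 TPM in K422, 360 TPM in HT, 64.0 TPM in TMD8 and 111 TPM in OCI-Ly10. For both genes the DMSO libraries of the highest and the lowest line did not overlap.

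Tissue-restricted isoforms were at or near 0. COX4I2, COX6A2, COX7A1, COX7B2 and COX8C, forms known from lung, heart, skeletal muscle or testis, were listed at 0 in every DMSO library, as was the readthrough gene ATP5MF-PTCD1. COX6B2 and ATP5MGL did not exceed 0.19 and 0.36 TPM under DMSO, and UQCRHL, a close copy of UQCRH, did not exceed 2.02 TPM. These 9 genes did not pass the filter on low counts in either subtype. Their partners COX4I1, COX6A1, COX6B1, COX7A2, COX7A2L, COX7B, COX8A and UQCRH were expressed in all lines. NDUFA4L2, an isoform known to be induced by hypoxia, reached 3.61 to 5.92 TPM in the GCB and 0.43 to 1.63 TPM in the ABC lines under DMSO.

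NDUFA4 was at the floor in 1 line. It had 1 count in all 8 OCI-Ly10 libraries together, from the 6 h DMSO library, against 3622 to 4869 counts per library in K422, 3803 to 4568 in HT and 3498 to 4162 in TMD8. A count of 0 allows up to 3 counts, which would be at most 0.124 TPM, against 106 to 165 TPM in the other 3 lines. Both treatments were at the floor in OCI-Ly10, so no fold change is given there. The neighbours of NDUFA4 were then looked up, a choice made after its values were seen. In GENCODE 29 (GRCh38) the gene lies on the minus strand of chromosome 7 from 10931951 to 10940256. From ICA1 (start 8113184) to FERD3L (end 19145421), 27 consecutive protein-coding genes of the files had at most 3 counts in every OCI-Ly10 library. Of these, 6 had at least 50 counts in every library of the other 3 lines, namely NDUFA4, PHF14, TMEM106B, ANKMY2, BZW2 and SNX13. Among the 874 protein-coding genes of chromosome 7 in the files, no other gene met both limits. The expressed genes on either side, GLCCI1 and TWISTNB, reached 248 and 937 counts in OCI-Ly10. C15orf48, a paralog of NDUFA4, had at most 5 counts in any library. What sets this pattern was not tested, and NDUFA4 did not pass the filter in ABC.

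**Figure D1:**
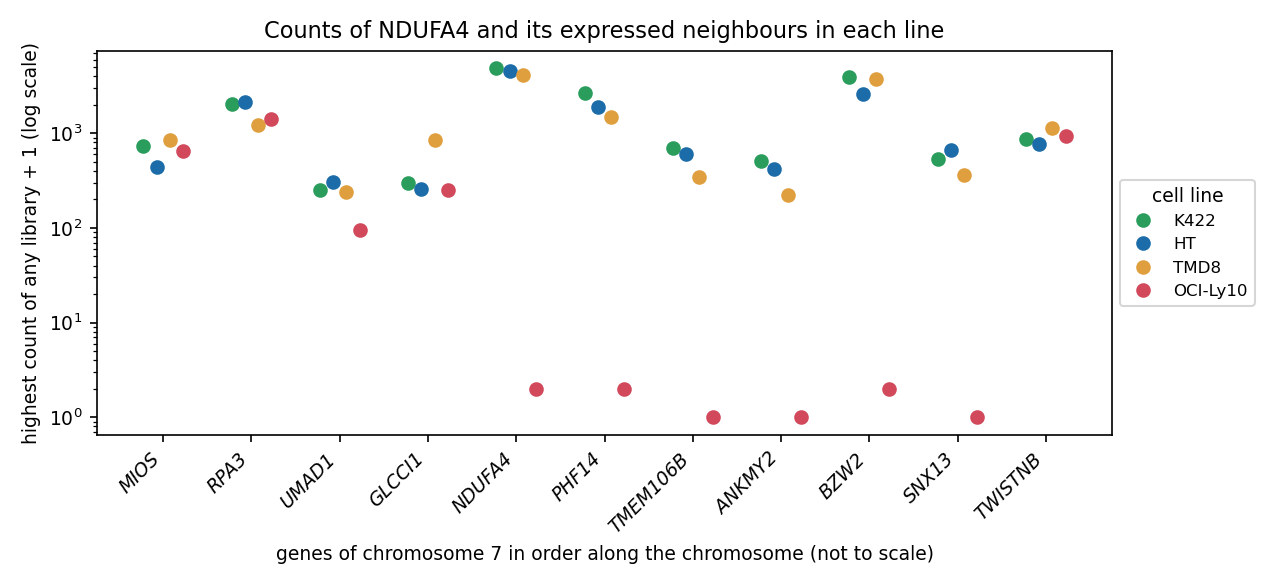
Highest count of any library of a line, plus 1 (y axis, log scale), for NDUFA4 and protein-coding genes around it on chromosome 7. The genes drawn had at least 50 counts in every library of K422, HT and TMD8. They stand in order along the chromosome (x axis, not to scale). NDUFA4, PHF14, TMEM106B, ANKMY2, BZW2 and SNX13 had at most 1 count in OCI-Ly10, while MIOS, RPA3, UMAD1, GLCCI1 and TWISTNB were expressed in all 4 lines.

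To ask how the complexes responded by line and time, the log2 ratio of CPM (counts relative to the library size, scaled by TMM) between the AZD8186 and the DMSO library was taken in each pair for 80 genes of complexes I to V, leaving out NDUFA4 and 8 genes with few or no counts. The shifts were small. K422 stayed between -0.022 and 0.024 in the median over the 80 genes. HT had 0.098 at 6 h, 0.044 at 12 h, -0.122 at 18 h and -0.143 at 24 h, with 71, 49, 10 and 12 of the 80 genes above 0. TMD8 had 0.1 at 6 h, 0.082 at 18 h and 0.127 at 24 h. OCI-Ly10 had -0.006 at 6 h, 0.169 at 12 h, 0.222 at 18 h and 0.048 at 24 h. The lowest medians of the 15 pairs were those of HT at 18 and 24 h. Ribosomal protein genes had medians of 0.032 to 0.559 in the GCB pairs and of -0.014 to 0.548 in the ABC pairs, with 0.032 and 0.114 in HT at 18 and 24 h.

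Complex IV had the highest median of the 5 complexes in 13 of 15 pairs, and complex II in the other 2, K422 and OCI-Ly10 at 6 h. In K422 at 24 h complex IV had 0.119, complex I 0.012, complex V -0.031, complex III -0.134 and complex II -0.225. In HT at 24 h all were below 0, complex IV with -0.048, complex II with -0.076, complex I with -0.162, complex V with -0.186 and complex III with -0.187. In TMD8 at 24 h complex IV had 0.248, complex I 0.104, complex III 0.091, complex V 0.086 and complex II -0.13. In OCI-Ly10 at 18 h complex IV reached 0.317, complex III 0.263, complex I 0.208, complex V 0.196 and complex II -0.022. Complex II had the lowest median in 9 of 15 pairs. Its genes are few and long, with a median transcript of 2088 bases, against 646 bases for complex IV, 771 for complex I, 806 for complex V and 1335 for complex III. The ranks describe single pairs and were not tested.

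**Figure D2:**
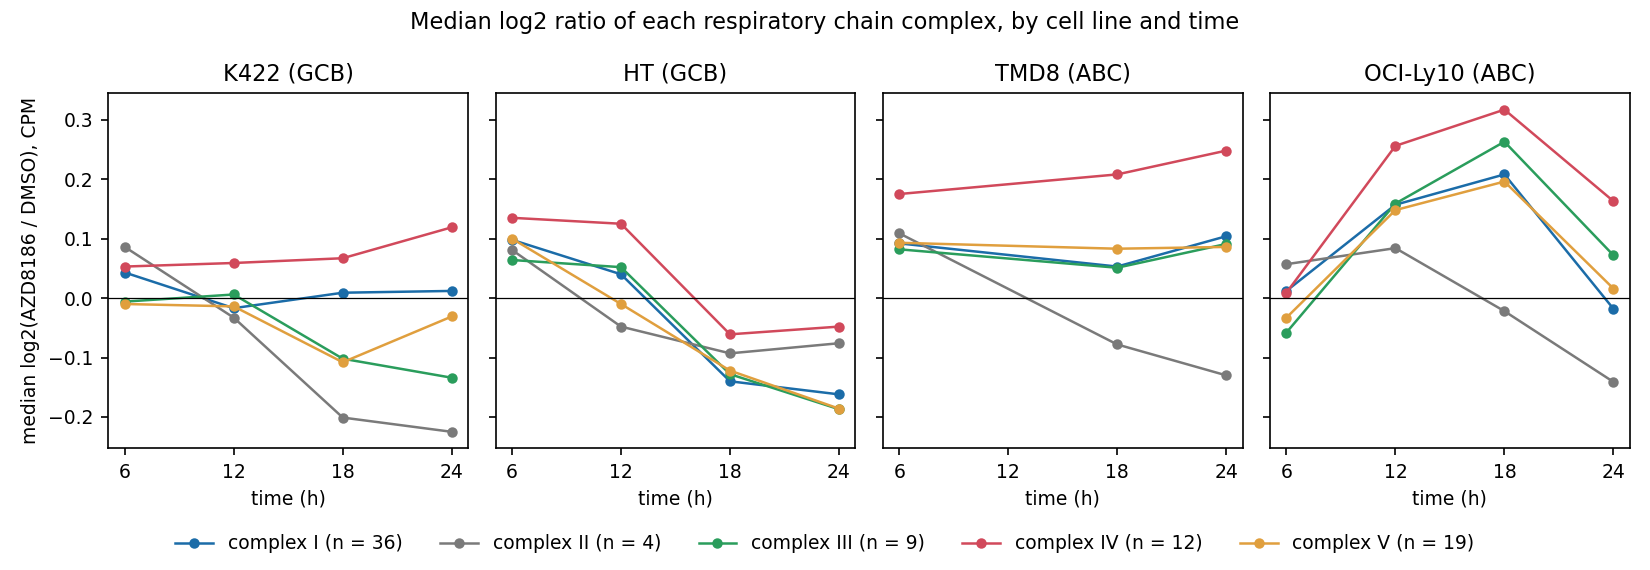
Median log2 ratio of CPM, AZD8186 over DMSO, of the genes of each complex (y axis) by time in hours (x axis) in K422, HT, TMD8 and OCI-Ly10, with 1 pair of libraries per point and no error bar. Complex IV lies on top in 13 of 15 pairs, and all 5 complexes lie below 0 in HT at 18 and 24 h.

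In the GCB lines 10 of 82 genes rose with AZD8186 and 13 fell (edgeR quasi-likelihood F test, adjusted p under 0.05 by Benjamini and Hochberg over all genes). That is 12.2% and 15.9% of them, both below the 25.9% and 23.5% of all 10965 genes tested. Their median log2 fold change was -0.028, against 0.025 for all genes. Complex IV had 3 genes higher and 1 lower of 13 (median 0.035), complex I 2 and 4 of 36 (-0.015), complex II 1 and 1 of 4 (-0.073), complex III 1 and 2 of 9 (-0.062) and complex V 3 and 5 of 19 (-0.062). Without the 6 h libraries 22 genes were lower, and by TPM 6 were higher and 25 lower. Without K422 at 18 h 7 genes were lower, and without K422 at 24 h 6 were higher.

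Among the genes that fell in GCB cells was CYC1, cytochrome c1 of complex III, with 304 to 562 CPM with AZD8186 (median 403), against 399 to 564 CPM under DMSO (median 473). It was lower in 8 of 8 pairs, with a log2 change of -0.23 (SE 0.051, adjusted p = 0.00164, edgeR). UQCR10, a small subunit of the same complex, had 51.8 to 82.2 CPM with AZD8186 (median 61.7), against 58.8 to 89.2 CPM under DMSO (median 77.2), a log2 fold change of -0.24 (SE 0.054), also in 8 of 8 pairs. The ranges overlap because the lines and times differ in level, so the pairs carry the comparison. NDUFA9, an accessory subunit at the junction of the arms of complex I, was lower in 7 of 8 pairs (-0.26, SE 0.055), and COX5A was the 1 complex IV gene that fell (-0.15, SE 0.046). Against the direction of most called genes of its complex, NDUFB5 of the membrane arm of complex I rose (0.19, SE 0.060, 6 of 8 pairs). UQCRB of complex III rose too (0.21, SE 0.058, 8 of 8 pairs). In complex V the same held for ATP5MC2, for ATP5MG, a subunit of the membrane part (0.14, SE 0.051, 7 of 8 pairs), and for ATP5S, now named DMAC2L (0.22, SE 0.066, 7 of 8 pairs).

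In the ABC lines 25 of 81 genes rose and 1 fell, 30.9% and 1.23%, against 15.3% and 13.8% of all 11419 genes tested. The median log2 fold change was 0.096, against 0.007 for all genes. Complex IV had 8 of 12 tested genes higher (median 0.175), complex I 9 of 36 (0.078), complex V 5 of 19 (0.089) and complex III 2 of 9 (0.057), with 0 lower, and complex II had 1 higher and 1 lower of 4 (-0.006). By TPM the direction turned, with 1 gene higher and 18 lower and a median of -0.085, while the median of all genes lay at -0.151. Ribosomal protein genes took 49.6% to 56.3% of all TPM in AZD8186-treated ABC cells, against 44.5% to 53.2% under DMSO. Each of the 25 genes was above the median of all genes on both scales, and complex IV stood 0.168 above it by counts and 0.136 by TPM, but 0.071 above it after removal of the trend of fold change with length, level with complex III at 0.072. The respiratory chain genes are short (median 806 bases, against 3025 for all genes tested in ABC), and after removal of that trend 11 were called higher, 3 of them in complex IV, and 2 lower. Without OCI-Ly10 at 12 h, OCI-Ly10 at 18 h or TMD8 at 18 h, 14, 11 and 15 genes were called higher.

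The smallest p-values in ABC belonged to small subunits. COX6C, a subunit of complex IV, had 143 to 202 CPM with AZD8186 (median 167), against 111 to 149 CPM under DMSO (median 143), a log2 fold change that reached 0.35 (SE 0.060, adjusted p = 0.00104, edgeR). It was higher in 7 of 7 pairs, and so was UQCRB, with 225 to 288 CPM with AZD8186 (median 249), against 165 to 250 CPM under DMSO (median 185), and a log2 change of 0.34 (SE 0.060, adjusted p = 0.00111, edgeR). UQCRH, the hinge protein of complex III, rose by 0.30 (SE 0.058) and COX7C of complex IV by 0.27 (SE 0.055), each in 7 of 7 pairs. In complex I the smallest p belonged to NDUFB5 (0.25, SE 0.059, 7 of 7 pairs) and NDUFA2, a subunit of the matrix arm (0.27, SE 0.065, 6 of 7 pairs). By TPM these 6 genes were at 0.043 to 0.148 and were not called. COX6A1, COX6B1, COX7A2 and SDHC also rose by counts, by 0.15 to 0.18, and were at -0.053 to -0.0067 by TPM.

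Complex II moved in both directions in both subtypes. SDHB, its iron-sulfur subunit, had 81.7 to 146 CPM with AZD8186 in GCB cells (median 112), against 99.4 to 159 CPM under DMSO (median 130), and fell in 7 of 8 pairs (-0.22, SE 0.049, adjusted p = 0.0019, edgeR). In ABC cells it had 92.3 to 128 CPM with AZD8186 (median 106), against 108 to 142 CPM under DMSO (median 118), and fell in 7 of 7 pairs (-0.18, SE 0.064, adjusted p = 0.0491, edgeR). The ABC call sits at the threshold and was lost without any 1 of 4 pairs, TMD8 at 18 or 24 h or OCI-Ly10 at 18 or 24 h (adjusted p = 0.105 to 0.15, edgeR). SDHC, a membrane anchor, rose by counts in both, by 0.14 (SE 0.057) in GCB and 0.15 (SE 0.049) in ABC lines. Its GCB call was lost without HT at 12 h or any 1 K422 pair (adjusted p = 0.0539 to 0.14, edgeR), without 6 h (0.0542), with no filter (0.104) and by TPM (0.222). Its ABC call was lost without TMD8 at 18 or 24 h or OCI-Ly10 at 12, 18 or 24 h (adjusted p = 0.0575 to 0.134, edgeR) and with no filter (0.107). SDHA, the flavoprotein, and SDHD, the other anchor, were not called in either.

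**Figure D3:**
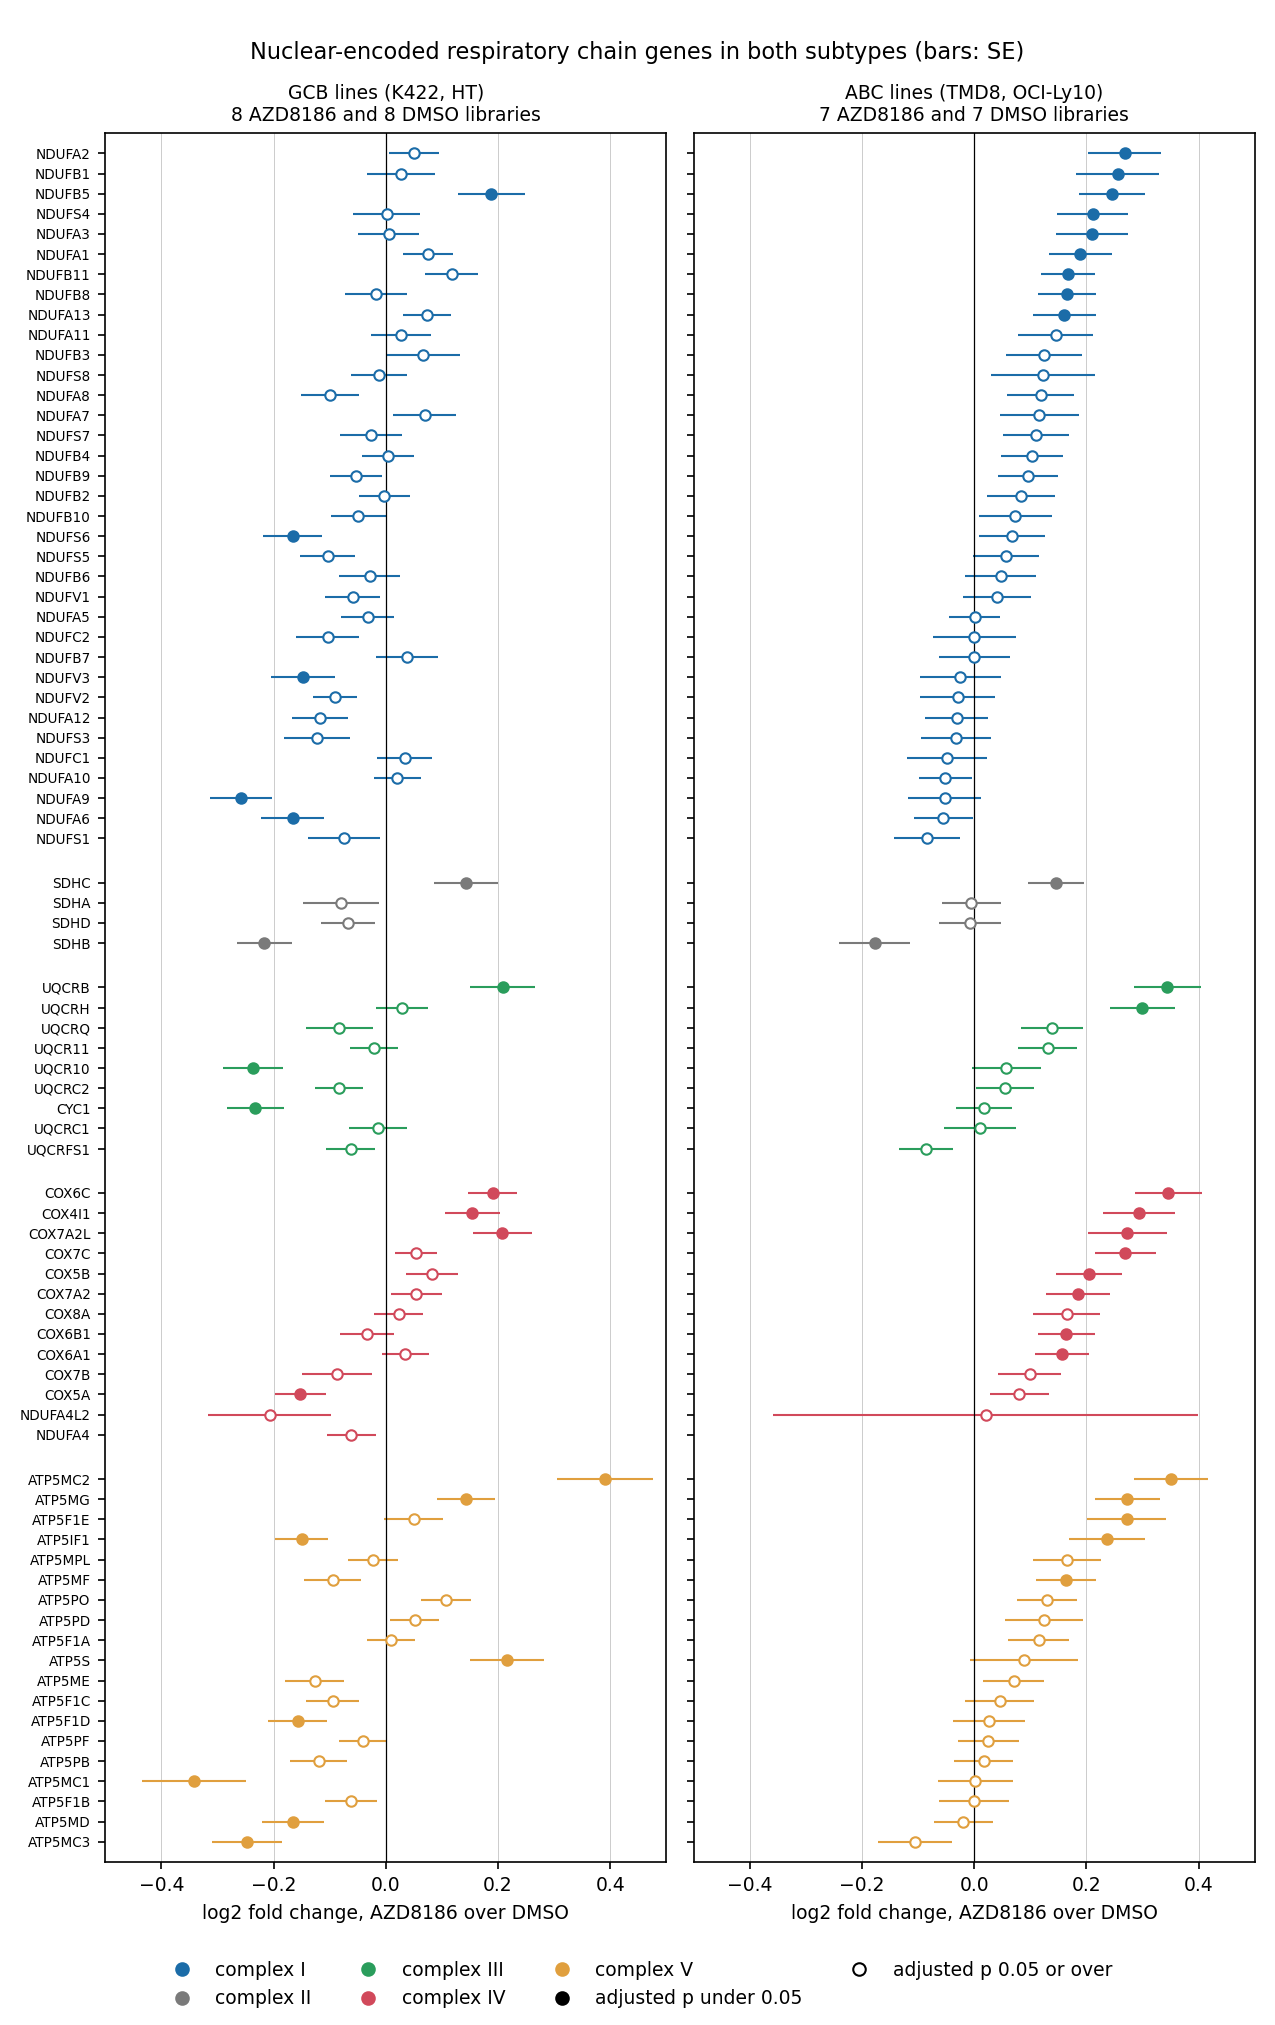
Log2 fold change, AZD8186 over DMSO (x axis, bars are SE), of the tested genes of complexes I to V (y axis; 1 gene is not drawn), in GCB lines on the left and ABC lines on the right. Filled points passed the test, and the 12 complex IV genes tested in ABC all lie above 0 by counts, though their median was -0.015 by TPM.

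Of the 81 genes tested in both subtypes, 8 rose in both (COX6C, COX4I1, COX7A2L, UQCRB, NDUFB5, SDHC, ATP5MC2 and ATP5MG) and 1 fell in both (SDHB), 9.88% and 1.23%, against 8.95% and 8.29% of the 10203 genes tested in both. By TPM, ATP5MC2 was the 1 gene of the 8 still called higher in ABC. NDUFB5, SDHC and ATP5MG were not called in GCB without K422 at 12, 18 or 24 h, nor COX4I1 without K422 at 24 h (adjusted p = 0.0595, edgeR), and COX7A2L was not called in ABC without OCI-Ly10 at 18 h (adjusted p = 0.054, edgeR). ATP5IF1 fell in GCB and rose in ABC lines. Its GCB call was lost without K422 at 12 or 18 h (adjusted p = 0.0522 and 0.0593, edgeR). Its ABC call was lost without OCI-Ly10 at 12 or 24 h (adjusted p = 0.0581 and 0.0727, edgeR). After removal of the length trend (adjusted p = 0.125, edgeR) and by TPM (adjusted p = 0.628, limma) it was not called in ABC either. A further 2 genes were called higher and 11 lower in GCB alone, 16 were called higher in ABC alone, and 42 were called in neither. COX4I1, the common form of subunit IV of complex IV, had 420 to 524 CPM with AZD8186 in GCB cells (median 461), against 354 to 463 CPM under DMSO (median 440). In ABC cells it had 507 to 606 CPM with AZD8186 (median 568), against 383 to 556 CPM under DMSO (median 455). It was higher in 8 of 8 GCB and 7 of 7 ABC pairs (0.15, SE 0.048, and 0.29, SE 0.064). COX7A2L, which takes part in the joining of complexes III and IV, was higher in every pair too (0.21, SE 0.052, in GCB and 0.27, SE 0.071, in ABC). COX8A, not called in GCB, just missed in ABC (0.16, SE 0.060, adjusted p = 0.0508, edgeR, with 0.0348 to 0.77 over its alternatives).

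The difference between the subtypes was tested in 1 fit of all 30 libraries, GCB minus ABC. There 0 of 83 genes were higher and 9 lower, 10.8%, against 8.4% and 7.42% of all 12910 genes. At an unadjusted p under 0.05, 1 was higher and 26 were lower, against 15.1% and 13.6% of all genes, and the median of the 83 was -0.115, against 0.008 for all genes. The 9 genes were NDUFA2 and NDUFS6 of complex I, UQCR10, UQCRH and CYC1 of complex III, COX5A and COX7C of complex IV, and ATP5IF1 and ATP5MF of complex V. ATP5IF1 had the smallest p. In K422 it had 218, 231, 203 and 212 CPM at 6, 12, 18 and 24 h with AZD8186, against 244, 274, 235 and 236 CPM under DMSO. In OCI-Ly10 it had 128, 122, 115 and 106 CPM with AZD8186, against 118, 92.8, 94.9 and 83.2 CPM under DMSO. At every time it was lower with AZD8186 in K422 and higher in OCI-Ly10. In HT it had 265, 238, 208 and 198 CPM with AZD8186, against 256, 244, 237 and 225 CPM under DMSO, and in TMD8 36.4, 45.03 and 34.2 CPM at 6, 18 and 24 h with AZD8186, against 37.2, 36.4 and 29.7 CPM under DMSO. The 6 h pairs of these lines ran the other way, with log2 ratios of 0.046 in HT and -0.029 in TMD8, and neither line was called alone (HT -0.091, SE 0.061, and TMD8 0.16, SE 0.077). The difference between subtypes was -0.365 (SE 0.066, adjusted p = 0.00101, edgeR, with 0.000316 to 0.013 over its alternatives). The count of 9 was 4 after removal of the length trend, 14 with at least 5 CPM in 7 libraries and 15 without HT at 6 h, and it was 5 without HT at 18 h, HT at 24 h, K422 at 12 h or TMD8 at 24 h. By TPM 4 genes were higher and 1 lower.

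By line, 11 of 83 genes rose in K422 and 8 fell, against 22.7% and 20.2% of all genes. Complexes I, IV and V had 3 higher each, and complex V had 4 of the 8 that fell. In HT 0 rose and 0 fell by edgeR, against 9.17% and 7.44%, with 2 higher and 8 lower at an unadjusted p under 0.05 (16.5% and 13.3% of all genes), 2 lower by DESeq2 and 6 lower without 6 h. In TMD8 15 rose and 0 fell, against 9.26% and 7.63%, with 6 in complex I and 4 in complex IV. In OCI-Ly10 14 rose and 0 fell, against 11.3% and 11.5%, with 6 in complex IV. These counts rest on few pairs. Without single pairs of the line, 3 to 25 genes were higher in OCI-Ly10 (3 without 18 h or 24 h, 8 without 12 h, 25 without 6 h) and 4 and 3 in TMD8 (without 18 h and 24 h). In K422 13 were lower without 6 h, 5 were lower without 18 h and 7 were higher without 24 h. By TPM the direction turned in the ABC lines, with 1 higher and 12 lower in TMD8 and 2 higher and 7 lower in OCI-Ly10, and 16 were lower in K422. Fitted alone, TMD8 gave 0 genes higher and HT 2 higher and 8 lower.

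K422 minus HT gave 3 genes higher and 0 lower, against 4.76% and 5.83% of all genes, namely NDUFB5 (0.34, SE 0.088), ATP5MC2 (0.44, SE 0.14) and SDHC (0.25, SE 0.077). None of the 3 was called without HT at 18 h, HT at 24 h, K422 at 12 h or K422 at 24 h, and 1 gene was called without HT at 6 h, HT at 12 h, K422 at 18 h, TMD8 at 18 h or OCI-Ly10 at 12 h. Between TMD8 and OCI-Ly10 0 genes differed by edgeR, against 0.899% of all genes, with 0 higher and 1 lower at an unadjusted p under 0.05 (NDUFB10, -0.27, SE 0.090), against 6.22% and 5.3% of all genes. The next smallest p-values were those of ATP5MF (0.19, SE 0.090) and NDUFS4 (0.22, adjusted p = 0.482, edgeR).

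Late (18 and 24 h) minus early (6 and 12 h) responses gave 0 calls in either subtype by edgeR, against 0.0852% of all genes in GCB and 0.635% in ABC. At an unadjusted p under 0.05, 1 gene was higher and 24 were lower in GCB, against 8.02% and 4.34% of all genes, and 7 were higher and 4 lower in ABC, against 8.53% and 7.82%. The GCB median was -0.125, against 0.032 for all genes, and 15 of 83 genes lay above 0. This late term was shared by both GCB lines, whose pair medians differed. In HT these were 0.098 and 0.044 at 6 and 12 h and -0.122 and -0.143 at 18 and 24 h. In K422 they were 0.024 and 0.006, then -0.022 and 0.005. The smallest p in GCB belonged to ATP5MC1 (-0.48, SE 0.10, adjusted p = 0.081, edgeR), and the next to ATP5MC3 (-0.28, SE 0.084) and COX7B (-0.32, SE 0.099). With no filter on low counts ATP5MC1 was called (adjusted p = 0.0178, edgeR, with 0.0178 to 0.427 over its alternatives), and so it was without HT at 12 h, K422 at 12 h or TMD8 at 6 h. In ABC the smallest p belonged to COX4I1 (0.32, SE 0.085, adjusted p = 0.0781, edgeR), followed by ATP5F1E (0.30, SE 0.095) and COX7C (0.23, SE 0.076), and 1 gene was called without OCI-Ly10 at 12 h.

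The 3 genes of the ATP synthase c subunit parted in K422. ATP5MC1, ATP5MC2 and ATP5MC3 encode the same mature peptide, which forms the rotating ring of complex V, behind different import sequences. ATP5MC2 had 227, 286, 293 and 335 CPM at 6, 12, 18 and 24 h in K422 with AZD8186, against 193, 207, 174 and 164 CPM under DMSO. All 4 AZD8186 libraries lay above all 4 DMSO libraries, with a log2 change in K422 of 0.62 (SE 0.097, adjusted p = 5.99e-05, edgeR). ATP5MC1 had 219, 189, 128 and 142 CPM in K422 with AZD8186, against 224, 263, 221 and 228 CPM under DMSO. Here all 4 AZD8186 libraries lay below all 4 DMSO libraries, with -0.49 (SE 0.11, adjusted p = 0.00126, edgeR). ATP5MC3 had 517, 448, 376 and 395 CPM in K422 with AZD8186, against 531, 580, 537 and 535 CPM under DMSO. These groups did not overlap either, with -0.34 (SE 0.086, adjusted p = 0.00392, edgeR).

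In HT none of the 3 was called. ATP5MC2 had 228, 260, 245 and 233 CPM at 6, 12, 18 and 24 h with AZD8186, against 217, 214, 218 and 205 CPM under DMSO (0.18, SE 0.097, adjusted p = 0.238, edgeR). ATP5MC1 had 230, 211, 173 and 149 CPM with AZD8186, against 201, 220, 220 and 208 CPM under DMSO (-0.17, SE 0.11), and ATP5MC3 521, 494, 410 and 393 CPM with AZD8186, against 489, 520, 494 and 486 CPM under DMSO (-0.14, SE 0.086). For ATP5MC2 every AZD8186 library of HT lay above every DMSO library. For ATP5MC1 and ATP5MC3 the HT groups overlapped, with AZD8186 higher at 6 h and lower later. K422 minus HT was called for ATP5MC2, as given above. It was not called for ATP5MC1 (-0.32, SE 0.15, adjusted p = 0.2, edgeR) or ATP5MC3 (-0.20, SE 0.12, adjusted p = 0.334, edgeR).

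Over both GCB lines ATP5MC2 was higher in 8 of 8 pairs (0.39, SE 0.086), and ATP5MC1 (-0.34, SE 0.093) and ATP5MC3 (-0.25, SE 0.063) were lower in 7 of 8, with HT at 6 h the exception for both. In ABC cells ATP5MC2 rose in 7 of 7 pairs (0.35, SE 0.066, adjusted p = 0.00187, edgeR), while ATP5MC1 (0.0019, SE 0.067) and ATP5MC3 (-0.11, SE 0.066) were not called. The counts of ATP5MC1, ATP5MC2 and ATP5MC3 were not whole in 96.7%, 76.7% and 73.3% of the libraries, so some of their reads were shared.

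**Figure D4:**
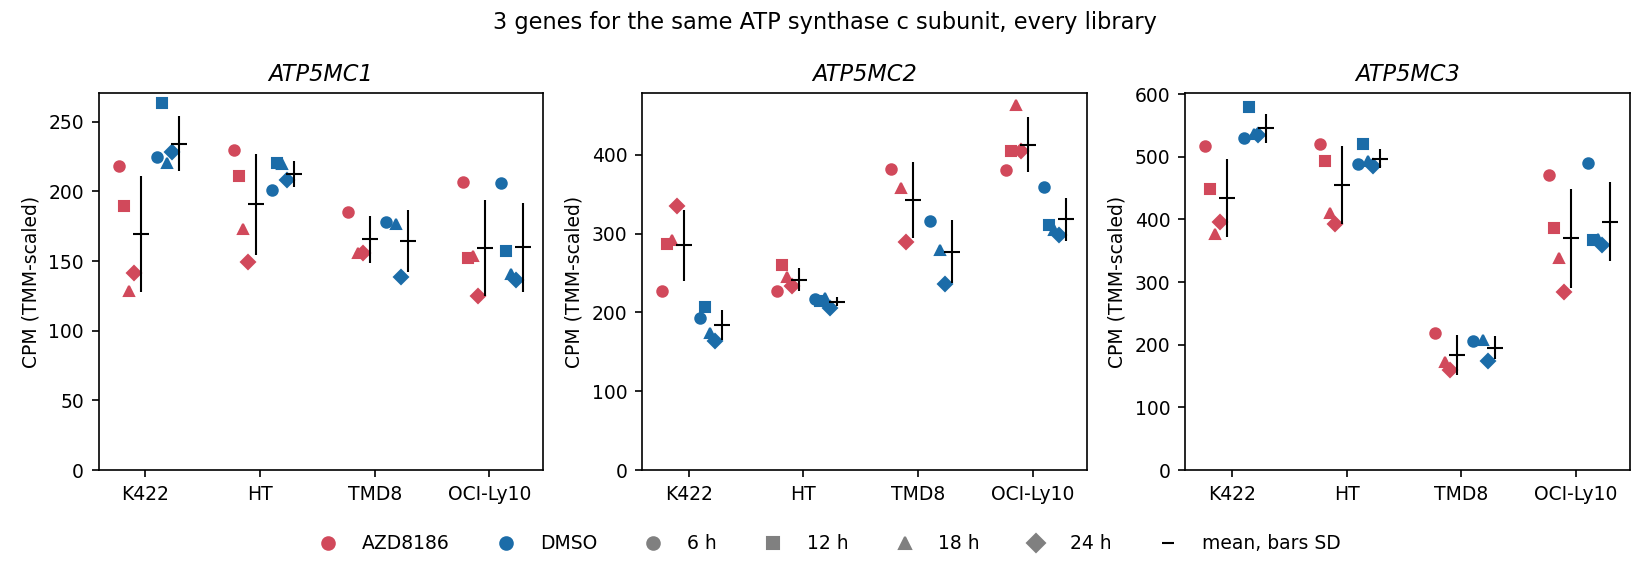
CPM (y axis) of ATP5MC1, ATP5MC2 and ATP5MC3 in every library by cell line (x axis), AZD8186 left of DMSO in each line, with the time as the marker and the mean and SD over the times of a line beside the points. In K422 all 4 AZD8186 libraries lie above the DMSO libraries for ATP5MC2 and below them for ATP5MC1 and ATP5MC3.

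The gene starts were compared next, to show what genes that moved together or apart share in sequence. RefSeq promoter windows (GRCh38.p14, 250 bases before to 50 after the start) were matched for 70 of the 89 genes of complexes I to V. NRF1, factors of the ETS family and YY1 are known to bind promoters of respiratory genes. The palindromic NRF1 motif was in 17 of the 70 windows (24.3%), against 6.28% of all 27305 windows in the table. The ETS motif CCGGAAG was in 20 (28.6%), against 10.7%, and the YY1 motif AAGATGGC in 11 (15.7%), against 3.03%, with both strands searched. In complex IV the NRF1 motif was in 1 of 15 windows, that of COX8C, and the YY1 motif in 0. COX8C, COX6A2, COX6B2 and COX7B2, which did not pass the filter on low counts, are among the 15. A C at the first base followed by at least 4 further pyrimidines (C or T), a run known from ribosomal protein transcripts as the 5′ terminal oligopyrimidine motif, stood at the start of 9 of the 70 genes (12.9%), against 4.04% of all. The 9 were COX4I1, COX7A2L and COX7C of complex IV, ATP5MC2, ATP5MG, ATP5F1E and ATP5PO of complex V, UQCRH of complex III and NDUFC1 of complex I.

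The windows of 6 of these genes, which rose in ABC or in both subtypes, are given from 150 bases before the start to 30 after it, 5′ to 3′, with the run and any of the 3 motifs in capitals. ATP5F1E, which has a run and rose in ABC too, is not shown. In ATP5MG and COX4I1 the run overlaps an ETS motif of the other strand, and the capitals cover both.
ATP5MC2 (chr12:53676054-53676233, minus strand): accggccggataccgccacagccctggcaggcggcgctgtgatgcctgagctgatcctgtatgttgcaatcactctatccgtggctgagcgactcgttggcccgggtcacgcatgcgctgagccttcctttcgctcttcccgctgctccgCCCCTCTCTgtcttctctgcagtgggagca
ATP5MG (chr11:118401456-118401635, plus strand): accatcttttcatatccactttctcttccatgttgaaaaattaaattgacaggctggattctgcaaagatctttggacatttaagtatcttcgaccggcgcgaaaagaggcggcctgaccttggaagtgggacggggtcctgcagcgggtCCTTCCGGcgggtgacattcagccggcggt
COX4I1 (chr16:85799545-85799724, plus strand): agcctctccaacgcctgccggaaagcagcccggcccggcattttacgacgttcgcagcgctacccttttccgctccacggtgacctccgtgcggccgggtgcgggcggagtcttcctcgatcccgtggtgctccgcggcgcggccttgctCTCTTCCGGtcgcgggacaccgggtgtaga
COX7A2L (chr2:42361188-42361367, minus strand): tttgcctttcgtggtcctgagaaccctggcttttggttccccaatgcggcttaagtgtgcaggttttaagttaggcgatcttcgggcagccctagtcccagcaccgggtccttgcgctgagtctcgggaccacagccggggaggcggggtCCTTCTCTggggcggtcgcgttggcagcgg
COX7C (chr5:86617791-86617970, plus strand): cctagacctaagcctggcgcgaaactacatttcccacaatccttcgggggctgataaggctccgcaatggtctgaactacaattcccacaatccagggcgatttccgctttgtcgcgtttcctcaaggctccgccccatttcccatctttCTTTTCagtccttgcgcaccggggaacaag
UQCRH (chr1:46303548-46303727, plus strand): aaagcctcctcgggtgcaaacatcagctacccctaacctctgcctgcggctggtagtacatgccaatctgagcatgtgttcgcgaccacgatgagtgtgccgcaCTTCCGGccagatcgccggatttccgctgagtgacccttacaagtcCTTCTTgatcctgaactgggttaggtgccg

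Windows of 3 genes that fell in GCB cells are given in the same way, for contrast. None of them begins with such a run. SDHB holds an ETS and a YY1 motif, NDUFA9 an NRF1 and a YY1 motif, and ATP5MC1 none of the 3 in the stretch shown.
ATP5MC1 (chr17:48892637-48892816, plus strand): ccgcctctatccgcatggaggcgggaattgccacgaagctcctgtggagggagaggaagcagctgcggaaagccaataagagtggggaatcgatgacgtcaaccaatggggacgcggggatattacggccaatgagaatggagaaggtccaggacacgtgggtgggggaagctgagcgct
SDHB (chr1:17054003-17054182, minus strand): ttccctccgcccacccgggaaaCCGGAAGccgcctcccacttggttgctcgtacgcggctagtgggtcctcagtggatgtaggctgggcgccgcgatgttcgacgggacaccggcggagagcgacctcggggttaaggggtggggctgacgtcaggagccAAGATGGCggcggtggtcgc
NDUFA9 (chr12:4648964-4649143, plus strand): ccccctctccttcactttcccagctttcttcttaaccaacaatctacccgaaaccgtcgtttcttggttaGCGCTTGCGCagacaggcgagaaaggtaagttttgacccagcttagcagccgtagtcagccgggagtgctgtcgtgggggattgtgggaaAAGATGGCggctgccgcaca

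In GCB lines 4 of the 9 genes with a run rose (ATP5MC2, ATP5MG, COX4I1 and COX7A2L) and 0 fell, with a median log2 fold change of 0.107. Of the 57 other tested genes with a window 0 rose and 10 fell, with a median of -0.033. In ABC lines 7 of the 9 rose and 0 fell, with a median of 0.272, while 13 of 56 others rose and 1 fell, with a median of 0.081. By TPM the medians were 0.054 with and -0.084 without a run in GCB, and 0.089 with and -0.102 without in ABC. Over all genes with a window, 201 of 492 with a run rose and 71 fell in GCB, against 2018 and 2000 of 8114 without. In ABC 148 of 504 with a run rose and 48 fell, against 1198 and 1227 of 8431 without. Ribosomal protein genes were not left out here. Of those tested, 51 of 83 rose and 2 fell in GCB, and 77 of 82 rose and 1 fell in ABC. Their part in the counts by run was not tested. The starts were looked up after the fold changes were known, so these counts are a description, and whether the lines use the RefSeq starts was not tested.

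**Figure D5:**
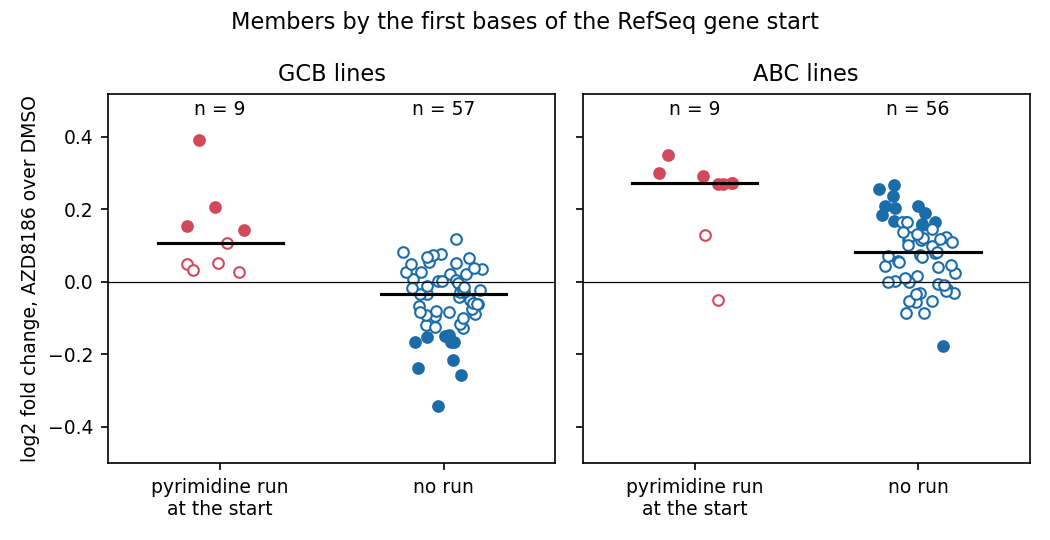
Log2 fold change, AZD8186 over DMSO (y axis), of respiratory chain genes with a RefSeq window, split by whether the first bases form a run of a C and at least 4 more pyrimidines (x axis), in GCB lines on the left and ABC lines on the right. Each point is a gene, filled where it passed the test, and the bar is the median, 0.107 with and -0.033 without a run in GCB and 0.272 with and 0.081 without in ABC, all by counts (by TPM the medians without a run were below 0 in both).

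Genes around the respiratory chain were read from further lists, whose counts stand against 25.9% higher and 23.5% lower of all genes in GCB and 15.3% and 13.8% in ABC. Of 50 assembly factors, which build the complexes but are not part of them, 1 rose and 25 fell in GCB (2.0% and 50%) and 5 rose and 5 fell in ABC lines (10.0% each), with medians of -0.139 and -0.021. In GCB the smallest p belonged to NDUFAF4, a factor of complex I (-0.58, SE 0.057), which fell in ABC too (-0.28, SE 0.10), followed by UQCC3 of complex III (-0.46, SE 0.063). In ABC COX15, which makes heme a, rose (0.31, SE 0.060), while TMEM70, a factor of complex V, fell in GCB (-0.38, SE 0.068) and in ABC (-0.30, SE 0.064). Of 18 TCA cycle genes 1 rose and 6 fell in GCB (5.56% and 33.3%) and 2 rose and 2 fell in ABC (11.1% each). IDH3A, a subunit of isocitrate dehydrogenase, fell in GCB (-0.52, SE 0.069). SUCLG2, of succinyl-CoA ligase, rose by 0.25 (SE 0.043) in GCB and by 0.17 (SE 0.050) in ABC, and DLST, of the oxoglutarate dehydrogenase complex, fell in GCB (-0.28, SE 0.058) and in ABC (-0.21, SE 0.065).

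Of 15 genes of coenzyme Q and cytochrome c, 5 rose and 4 fell in GCB (33.3% and 26.7%, against 25.9% and 23.5% of all genes) and 2 rose and 3 fell in ABC (13.3% and 20%, against 15.3% and 13.8%). CYCS, cytochrome c itself, which carries electrons from complex III to IV, fell in GCB (-0.64, SE 0.063, adjusted p = 2.46e-06, edgeR) and in ABC (-0.33, SE 0.081). COQ8A, needed to make coenzyme Q, rose in GCB (0.66, SE 0.077), and PDSS2, which builds its tail, rose in ABC (0.43, SE 0.098). PDSS2 was not called in GCB (-0.05, SE 0.059), and PDSS1 of the same list fell in GCB (-0.59, SE 0.0925) and in ABC (-0.41, SE 0.11). Of 16 tested regulators of respiratory genes, 1 rose and 10 fell in GCB (6.25% and 62.5%) and 0 rose and 6 fell in ABC (37.5%) by edgeR. PPARGC1B, a coactivator of mitochondrial genes, fell in GCB (-0.64, SE 0.091) and in ABC (-0.35, SE 0.10). ESRRA, a nuclear receptor that such coactivators bind, fell in GCB (-0.48, SE 0.056) and in ABC (-0.23, SE 0.068), and so did PPRC1, a related coactivator (-0.42, SE 0.081, in GCB and -0.35, SE 0.087, in ABC). No test compared these lists with the subunits.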

How the data were processed

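RNA-seq of 30 libraries was deposited by the authors as RSEM gene tables (HISAT2 alignment, GRCh38.p12, GENCODE 29, tool versions not given in the sources used here) with expected counts, TPM and FPKM. The expected counts deposited by the authors were rounded to whole numbers and tested with edgeR 4.0.16 in R 4.3.3 (quasi-likelihood F test, TMM scaling, filterByExpr, adjusted p under 0.05 over all genes). The TPM deposited by the authors served for levels and for limma 3.58.1 on log2(TPM + 1), where fold changes of low genes are understated. The FPKM deposited by the authors were not used. Subtype fits had cell line and time as terms. The fit of all 30 libraries had the pair as a block, with a treatment term per line. For each pair the log2 CPM (prior count 2) of DMSO was subtracted from that of AZD8186. DESeq2 1.42.0, other scalings, filters, pseudocounts, a length trend and leaving out pairs were the alternatives. The scripts were tested on simulated data.

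The respiratory chain genes and the other lists were chosen with earlier results of these data known. Named were, per complex, the 2 genes with the smallest p in each subtype, the 3 with the smallest p in each test of a difference, genes called against most of their complex, isoform pairs, genes under the filter and 2 genes of each other list per subtype. SDHA, SDHD, NDUFS6, PDSS1 and the neighbours of NDUFA4 were named after their values were seen. Other lists were assembly factors, TCA cycle, coenzyme Q and cytochrome c, regulators, ribosomal proteins and cell type markers. Library totals of 15820230 to 23579029 counts limit the precision of low genes. The values of 1 gene that the rule names are not reported here, though the counts include it.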

Additional observations from a re-analysis of the deposited data

Results flagged for a closer look

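In 12 cases the response differed between groups by a test of the difference itself. GCB minus ABC lines differed for ATP5IF1 (-0.365), UQCR10 (-0.282), UQCRH (-0.273), ATP5MF (-0.264), CYC1 (-0.241), NDUFS6 (-0.227), NDUFA2 (-0.223), COX5A (-0.219) and COX7C (-0.213), and K422 minus HT differed for ATP5MC2 (0.444), NDUFB5 (0.341) and SDHC (0.248), all as log2 differences with an adjusted p under 0.05 in edgeR. The log2 ratio of COX8A in HT at 12 h was 0.246, far from the other 7 GCB pairs. It was the 1 such value found in 59 groups of values tested, where chance flags about 1 in 20.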

How the results depend on the processing

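Of 409 repeats of counts and medians under alternatives, 332 stayed within set limits around the main value, 75 moved past them and 2 reversed in sign. For ABC, 0 genes were lower with scaling without ribosomal protein genes, with no filter and with at least 5 CPM in 7 libraries, and 11 were higher and 2 lower after removal of the length trend. With log2(TPM + 1) and log2(TPM + 0.1), 1 was higher and 18 lower in ABC and the median was -0.085 and -0.088, and 6 were higher and 25 lower in GCB. With log2(TPM + 1), 2 were higher and 7 lower in OCI-Ly10, 1 higher and 12 lower in TMD8, 16 lower in K422, 4 higher and 1 lower for GCB minus ABC and 10 lower for late minus early in ABC. After removal of the length trend 9 were higher in OCI-Ly10, 9 higher and 1 lower in TMD8, 1 lower in HT, 13 lower in K422 and 4 lower for GCB minus ABC, which had 14 lower with at least 5 CPM. Without 6 h, 22 were lower in GCB. In HT, 1 was higher with no filter, 2 lower with DESeq2, and 2 higher and 8 lower when fitted alone, where TMD8 had 0 higher. With no filter 1 was lower for late minus early in GCB. COX6A1 (-0.0343 and -0.0344), COX6B1 (-0.0259 and -0.0259), COX7A2 (-0.0067 and -0.0067) and SDHC (-0.0527 and -0.0538) reversed in ABC with log2(TPM + 1) and log2(TPM + 0.1). The causes were not tested.

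With 1 pair left out at a time, calls ranged from 6 to 12 higher and 7 to 18 lower in GCB, 11 to 31 higher and 0 to 1 lower in ABC, 7 to 12 higher and 5 to 13 lower in K422, 0 to 6 lower in HT, 3 to 12 higher and 0 to 1 lower in TMD8 and 3 to 25 higher in OCI-Ly10. They ranged from 0 to 1 higher and 5 to 15 lower for GCB minus ABC, 0 to 4 higher and 0 to 1 lower for K422 minus HT, 0 to 1 lower for late minus early in GCB and 0 to 1 higher in ABC. The medians ranged from -0.047 to -0.005 in GCB and from 0.078 to 0.115 in ABC. Libraries of a pair share a line and a time only, and their deviations correlated at -0.0197 to 0.289 over the 15 pairs. With the pair as a replicate block, 10 genes were higher and 13 lower in GCB and 26 higher and 1 lower in ABC. Depth limits the isoforms near 0, where 3 counts bound a count of 0.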
